A study of Mus musculus with 11 samples.

Results

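Transcripts of 39 genes of the interferon response and of RNA sensing were followed by RNA-seq in 10 libraries from embryonic stem cells of the mouse. The genes were taken by symbol from a table of read counts with 55291 gene rows, and all 39 symbols were found. The tagged cells are 2 independently targeted E14 lines, called 10E and 11D in the table, in which SPT16 carries a C-terminal V5 epitope and an auxin-inducible degron (AID) under both treatments. SPT16 and SSRP1 together form FACT, a histone chaperone, and the degron lets auxin direct the fusion protein to degradation. Tagged IAA cells received 500 nM 3-indoleacetic acid (IAA, an auxin) for 24 hours and gave 3 libraries, 1 of line 10E and 2 of line 11D. Tagged EtOH cells received an equal volume of ethanol and gave 4 libraries, 2 of each line. Untagged IAA cells, E14 cells without the SPT16 tag that received the same auxin, gave 3 libraries. All cells grew without feeders in serum with LIF and inhibitors of GSK3 and MEK, and the labels call each tagged line a clone.

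Cells detect foreign or misplaced nucleic acid with sensors such as RIG-I, MDA5, TLR3 and ZBP1. Signals from RIG-I and MDA5 pass through the mitochondrial adaptor MAVS to the transcription factors IRF3 and IRF7, which switch on interferon genes. Secreted interferon binds receptors on the cell surface, and type I interferon then activates a complex that holds STAT2 and IRF9. That complex binds the interferon-stimulated response element (ISRE) in the promoters of interferon-stimulated genes, whose products act against viruses. Pluripotent stem cells are known for a weak interferon response and for a basal level of some of these products, the IFITM proteins among them.

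The ISRE was searched as GAAANNGAAA on both strands in RefSeq promoter windows, from 250 bases before to 50 after the gene's start, on build GRCm38.p6. A window was given for 32 of the 39 genes, and 14 of these (43.75%) held a match, against 3.99% of the 27025 genes with any window. The bases before the start are shown for 4 genes that differ in how they behaved, with ISRE matches in capitals and neighbouring matches sharing bases. Isg15 (chr4:156200819-156201068, minus strand) was near 0 in every group, Ddx60 (chr8:61927837-61928086, plus strand) was higher in tagged IAA, and Ifitm2 (chr7:140955962-140956211, minus strand) and Bst2 (chr8:71537473-71537722, minus strand) were lower.
Isg15: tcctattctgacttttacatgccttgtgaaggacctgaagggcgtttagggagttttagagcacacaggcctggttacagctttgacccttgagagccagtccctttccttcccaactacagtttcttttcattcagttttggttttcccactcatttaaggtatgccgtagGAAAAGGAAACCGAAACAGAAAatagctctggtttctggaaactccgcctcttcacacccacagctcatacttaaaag
Ddx60: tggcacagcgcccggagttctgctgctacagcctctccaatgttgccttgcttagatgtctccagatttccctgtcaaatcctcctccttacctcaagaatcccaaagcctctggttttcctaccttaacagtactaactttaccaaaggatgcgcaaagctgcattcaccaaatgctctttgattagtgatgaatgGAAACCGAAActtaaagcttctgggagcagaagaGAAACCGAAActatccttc
Ifitm2: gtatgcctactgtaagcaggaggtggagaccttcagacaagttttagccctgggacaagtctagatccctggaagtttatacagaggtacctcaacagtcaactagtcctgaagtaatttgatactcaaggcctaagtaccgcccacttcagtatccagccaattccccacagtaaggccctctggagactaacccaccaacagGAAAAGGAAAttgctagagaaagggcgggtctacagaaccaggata
Bst2: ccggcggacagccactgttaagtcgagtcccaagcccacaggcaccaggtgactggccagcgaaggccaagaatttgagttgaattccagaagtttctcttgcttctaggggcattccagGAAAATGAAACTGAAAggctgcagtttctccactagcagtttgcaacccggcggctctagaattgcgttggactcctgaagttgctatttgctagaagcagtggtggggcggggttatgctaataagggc
A match is a string of letters and not a site shown to be bound. Among members called higher in tagged IAA than in tagged EtOH, 1 of the 5 with a window held a match (Ddx60). Zbp1, Mx1 and Parp14, also called higher, had no window and were not searched. Among those called lower the number was 4 of 9 (Ifitm2, Ifitm3, Bst2 and Eif2ak2). Among those tested and not called it was 3 of 9 (Irf2, Stat2 and Oas1a), and among those with too few counts to test it was 6 of 9 (Isg15, Ifit1, Ifit3, Ifih1, Rsad2 and Cxcl10). For Ifitm3, Eif2ak2 and Ifih1 the matches lay after the start. The lower call of Bst2 was kept in 4 of 15 alternative fits, and its values in the tagged groups overlapped.

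Total counts ran from 3100127 to 13510163 per tagged IAA library, from 3554390 to 11848952 per tagged EtOH library and from 4521137 to 11271067 per untagged library. Levels are given as CPM, counts in relation to library size, with TMM factors over the 10 libraries. The transcript of the targeted gene, Supt16, stood at 253 to 286 CPM in tagged IAA, 364 to 416 in tagged EtOH and 538 to 577 in untagged IAA libraries, and as the degron acts on the protein, this does not check the treatment labels. Of 10 embryonic stem cell markers, 9 were lower in tagged IAA than in tagged EtOH, against 28.1% of all genes tested. The other marker did not pass, and all 10 had counts in every group. Their sums were 2330 to 2541 CPM in tagged IAA, 5008 to 6427 in tagged EtOH and 5455 to 5658 in untagged IAA libraries. In these bulk samples, fewer cells of a type and less RNA per cell cannot be told apart. The share of counts from CT010467.1, a single transcript, was highest in 11D EtOH replicate 1 (4.27%) and 10E EtOH replicate 2 (2.64%).

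Between tagged IAA and tagged EtOH, the design asks how auxin acts on cells whose SPT16 it targets, since treatment differs within the same lines. Of the 39 members, 28 passed the filter on low counts and were tested among 17904 genes with edgeR's quasi-likelihood test, with line as a term and a call at a false discovery rate (FDR, Benjamini-Hochberg) under 0.05. Calls were made for 8 members in the higher direction, against 29.3% of all genes tested, and for 9 in the lower direction, against 28.1%, or 17 members in all, against 57.4%. The 28.6% and 32.1% of tested members called higher and lower were therefore near the shares of all genes. The median log2 fold change was 0.00 over the 28 members and 0.03 over all genes tested. For 15 of the 28 tested members the values of tagged IAA and tagged EtOH libraries did not overlap, against 52.4% of all genes tested. By role, 7 of 9 sensing genes were tested, with 2 higher and 4 lower. All 6 transcription factor genes were tested, with 2 higher and 1 lower, and all 3 receptor genes, with 1 lower. Of 21 genes of induced products 12 were tested, with 4 higher and 3 lower. With library totals alone in place of TMM factors, which moved the median of all genes by 0.33, 13 members were higher and 6 lower, and 73.0% of calls over all genes were higher instead of 51.0%.

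**Figure D1:**
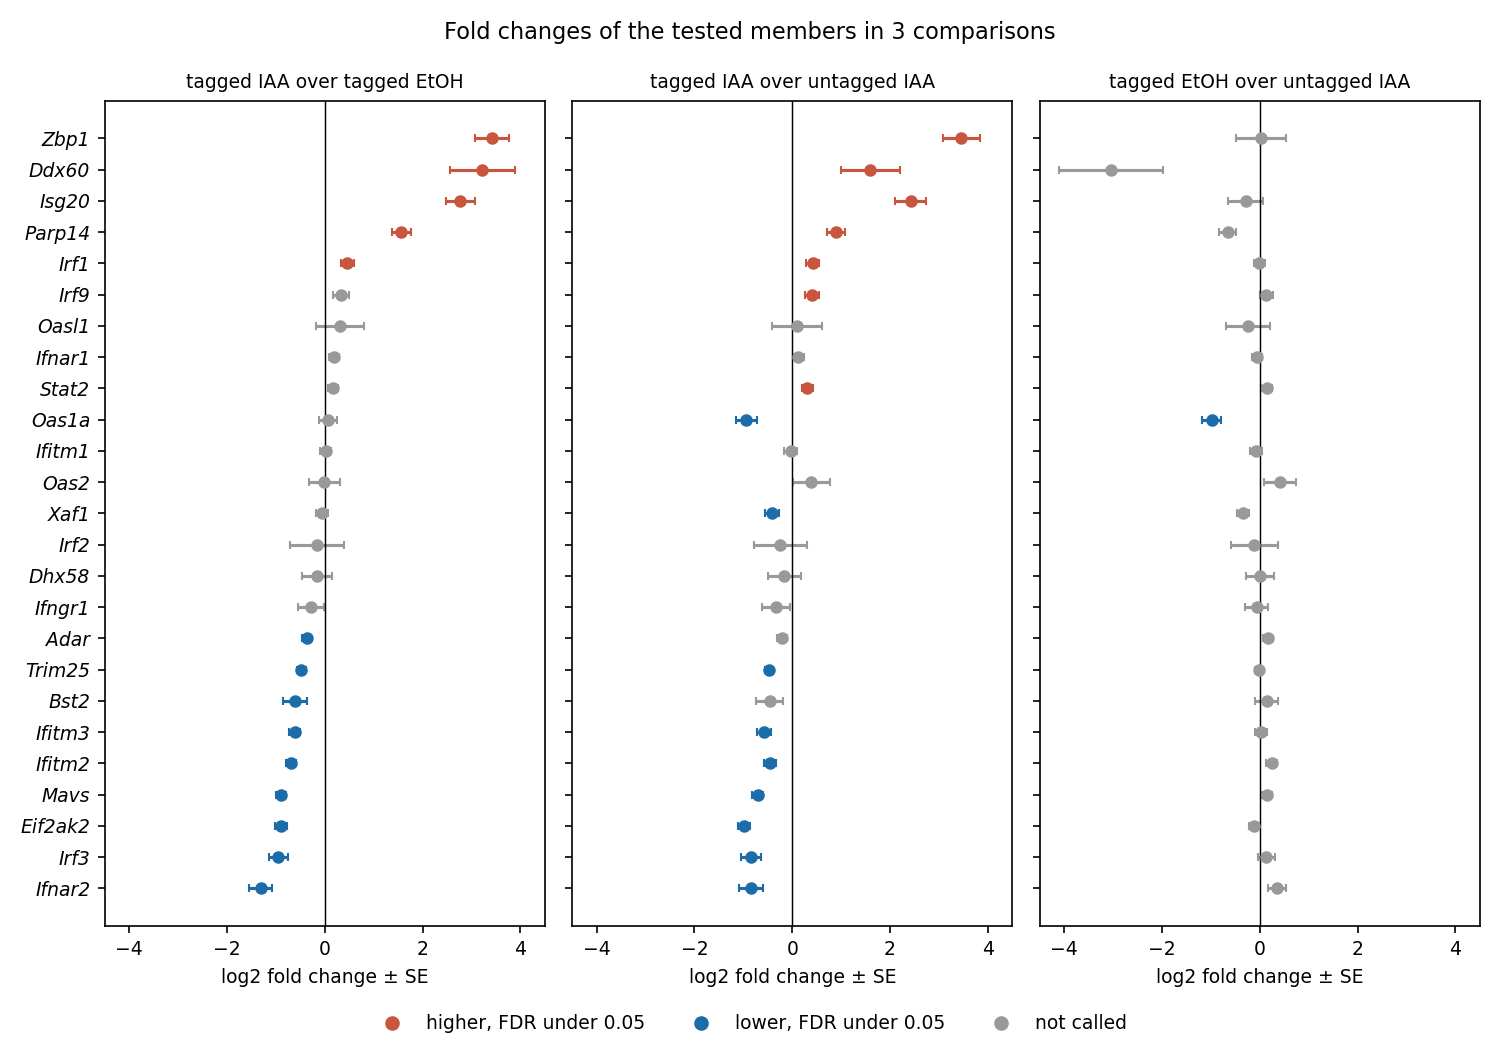
Log2 fold changes with their standard errors for the 25 tested members with more than 3 counts in tagged EtOH and in untagged IAA libraries in 3 comparisons, tagged IAA against tagged EtOH, tagged IAA against untagged IAA and tagged EtOH against untagged IAA, with called members in colour. Calls in both directions fill the first 2 comparisons, and 1 call, Oas1a, stands in the third.

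Among the sensors, Zbp1 had the most counts of those that rose. It encodes a sensor of Z-form nucleic acid that can start necroptosis (chr2:173206612-173218923, minus strand). Zbp1 stood at 6.14 (10E), 6.27 and 6.92 (11D) CPM in tagged IAA libraries, at 0.786 and 0.593 (10E), 0.622 and 0.448 (11D) in tagged EtOH and at 0.694, 0.337 and 0.652 in untagged IAA. Every tagged IAA library lay above 6 CPM and every other library under 1 CPM. The log2 fold change of tagged IAA over tagged EtOH was 3.42 ± 0.34 (SE), with an edgeR FDR of 5.18e-07. Zbp1 passed the filter on low counts only through its tagged IAA libraries.

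Ddx60 encodes a helicase that is itself induced by interferon and has been described as a cofactor of RIG-I (chr8:61928087-62038244, plus strand). Its level was 2.19 (10E), 3.14 and 2.07 (11D) CPM in tagged IAA, 0.655 and 0.395 (10E), 0 and 0 (11D) in tagged EtOH and 1.85, 0.337 and 0.466 in untagged IAA. No tagged IAA library overlapped the tagged EtOH libraries, and the 11D EtOH libraries held no count. From 53 counts against 9 the ratio of tagged IAA to tagged EtOH was 8.04 (exact 95% interval 3.93 to 18.5, counting error only), with an edgeR FDR of 0.000618. Within 11D it was 43 counts against 0, at least 10.9-fold higher when the floor is set at 3 counts per group. In the test against tagged EtOH, Ddx60 passed the filter on low counts only through its tagged IAA libraries.

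Mavs and Trim25, which act in the signalling behind the RNA sensors, were lower. Mavs, the adaptor downstream of RIG-I and MDA5 (chr2:131234063-131248025, plus strand), stood at 50.2 (10E), 44.7 and 40.9 (11D) CPM in tagged IAA, 78.8 and 80.5 (10E), 86.5 and 88.0 (11D) in tagged EtOH and 66.2, 85.1 and 74.4 in untagged IAA. Each tagged IAA library lay below each library of the other groups. Mavs fell by 0.90 ± 0.11 (SE) on the log2 scale, with an edgeR FDR of 3.92e-06. Trim25, a ubiquitin ligase that acts on RIG-I signalling (chr11:88999376-89020293, plus strand), stood at 229 (10E), 189 and 176 (11D) CPM in tagged IAA, 275 and 301 (10E), 269 and 271 (11D) in tagged EtOH and 277, 289 and 285 in untagged IAA, again with no overlap. Its log2 fold change was -0.48 ± 0.09 (edgeR FDR 0.000259), and with library totals it was -0.15 with an FDR of 0.162.

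A pair of genes for proteins that bind double-stranded RNA were lower as well. Eif2ak2 encodes PKR, a kinase that stops translation when it binds double-stranded RNA (chr17:78852564-78882573, minus strand), and stood at 25.4 (10E), 26.5 and 23.3 (11D) CPM in tagged IAA, 41.8 and 41.9 (10E), 46.7 and 51.5 (11D) in tagged EtOH and 52.3, 50.0 and 46.5 in untagged IAA. The groups did not overlap, and the log2 fold change of tagged IAA over tagged EtOH was -0.90 ± 0.12 (edgeR FDR 1.48e-05). Adar encodes the editing enzyme ADAR1, which turns adenosine into inosine in double-stranded RNA and keeps the cell's own RNA from being sensed (chr3:89715022-89753446, plus strand). Its level was 88.6 (10E), 88.4 and 89.1 (11D) CPM in tagged IAA, 129 and 111 (10E), 111 and 109 (11D) in tagged EtOH and 96.3, 104 and 107 in untagged IAA. The 3 tagged IAA libraries lay within 1 CPM of each other and below all others. The log2 fold change was -0.37 ± 0.10 (edgeR FDR 0.00363), and with library totals it was -0.04 with an FDR of 0.753.

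The other sensing genes gave no call. Dhx58, which encodes LGP2, a relative of RIG-I that modulates MDA5, had 2.41 (10E), 3.14 and 3.23 (11D) CPM in tagged IAA, 2.23 and 3.46 (10E), 4.36 and 2.96 (11D) in tagged EtOH and 2.55, 2.86 and 3.63 in untagged IAA, ranges that overlap (log2 fold change -0.16 ± 0.31, FDR 0.68). Ifih1, which encodes MDA5, had 5 counts in tagged IAA, all in 11D replicate 2, and 0 in both other groups. Tlr3, the endosomal receptor for double-stranded RNA, had 4 counts in tagged IAA, 4 in tagged EtOH and 1 in untagged IAA.

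**Figure D2:**
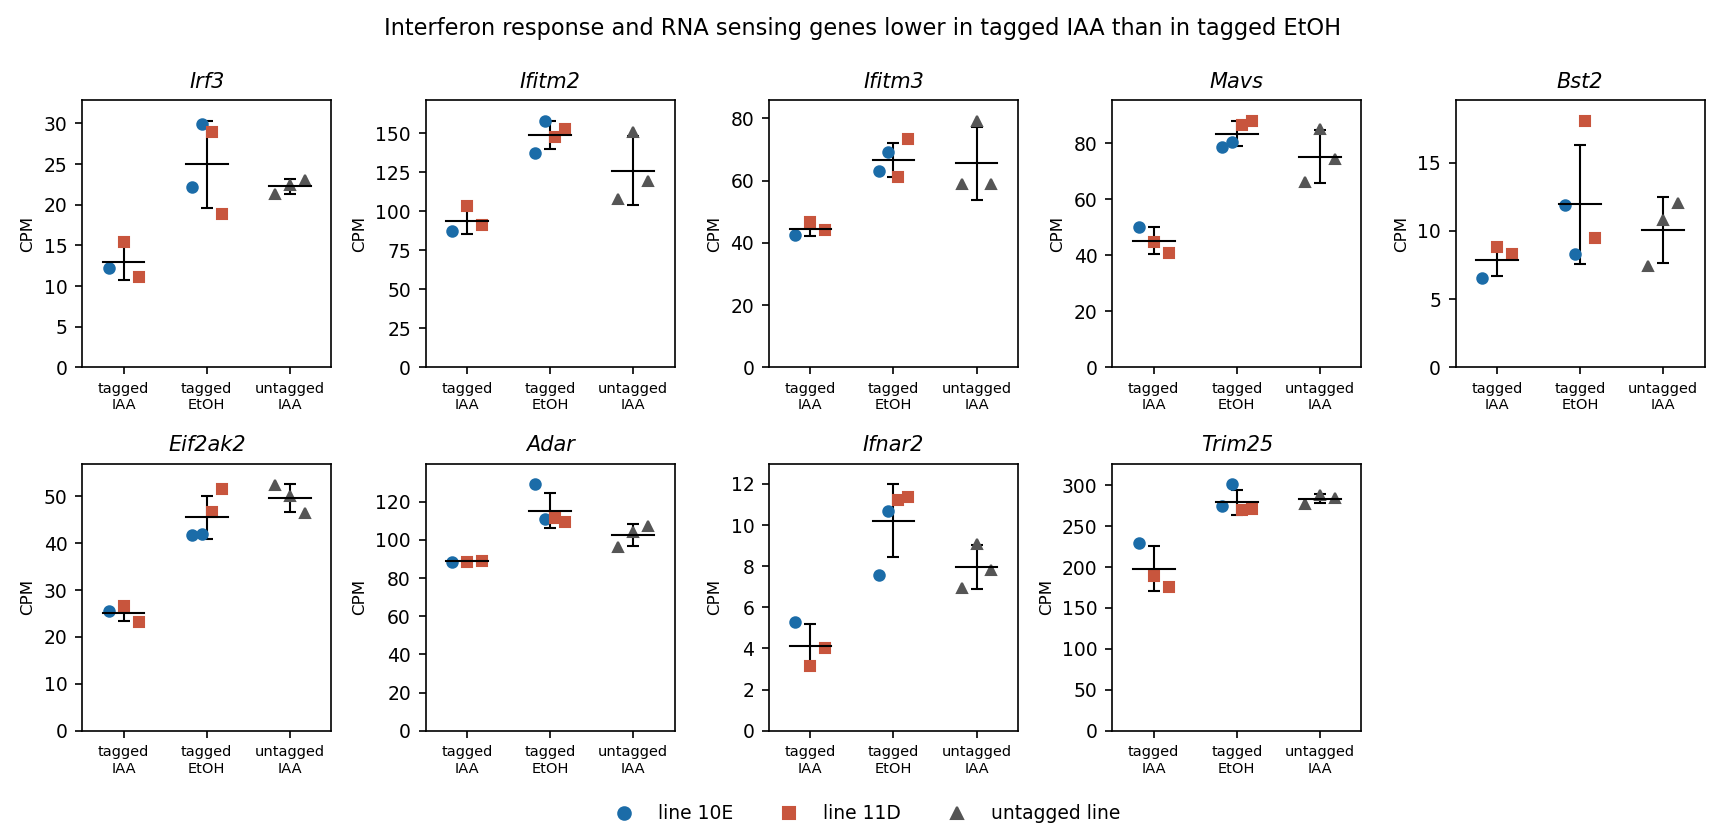
CPM in each library of the 9 members called lower in tagged IAA than in tagged EtOH, one panel per gene, with groups from left to right tagged IAA, tagged EtOH and untagged IAA, points for libraries and bars for the group mean and SD. Tagged IAA points lie below all tagged EtOH points in 8 panels, and Bst2 is the exception.

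At the transcription factors, Irf7 had most of its counts in tagged IAA libraries. IRF7 is a main activator of interferon alpha genes and is itself interferon-induced (chr7:141262706-141266481, minus strand). Irf7 had 1.75 (10E), 4.28 and 2.00 (11D) CPM in tagged IAA libraries, 0 and 0.0988 (10E), 0 and 0.0896 (11D) in tagged EtOH and 0.231, 0 and 0.0932 in untagged IAA. The counts were 54 in tagged IAA against 2 in tagged EtOH, a ratio of 36.9 (exact 95% interval 9.72 to 312) with an edgeR FDR of 3.82e-05. Against untagged IAA, also with 2 counts, the ratio was 24.1 (6.35 to 204). Irf7 passed the filter on low counts only through its tagged IAA libraries.

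Irf1, a factor for interferon-stimulated and antigen presentation genes (chr11:53770014-53778374, plus strand), rose less. Its level was 36.0 (10E), 35.3 and 36.7 (11D) CPM in tagged IAA, 30.3 and 32.7 (10E), 22.4 and 23.1 (11D) in tagged EtOH and 29.6, 25.4 and 26.3 in untagged IAA. Tagged IAA libraries lay above all others, though 10E EtOH came within 3 CPM. The log2 fold change within 10E was 0.18 ± 0.19 and within 11D 0.66 ± 0.16. Over both lines the log2 fold change was 0.46 ± 0.13 (edgeR FDR 0.00753), and without the line term the FDR was 0.0534.

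Irf3, the factor that MAVS signalling activates first (chr7:44997648-45002848, plus strand), was lower. It had 12.3 (10E), 15.4 and 11.1 (11D) CPM in tagged IAA, 22.1 and 29.9 (10E), 28.9 and 18.9 (11D) in tagged EtOH and 21.3, 22.4 and 23.1 in untagged IAA, and tagged IAA lay below all others. Irf3 fell by 0.95 ± 0.19 on the log2 scale (edgeR FDR 0.000558).

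Irf9 and Stat2 encode subunits of the factor that binds the ISRE. Irf9 had 23.5 (10E), 33.9 and 30.9 (11D) CPM in tagged IAA, 24.9 and 24.6 (10E), 24.3 and 18.7 (11D) in tagged EtOH and 19.7, 19.5 and 22.7 in untagged IAA. The 10E IAA library lay within the tagged EtOH values and both 11D IAA libraries above them. The log2 fold change was 0.34 ± 0.16 (FDR 0.085), without the 10E IAA library it was 0.62 with an FDR of 0.0146, and with library totals 0.67 with an FDR of 0.0018. Stat2 had 96.3 (10E), 82.7 and 86.7 (11D) CPM in tagged IAA, 93.0 and 76.6 (10E), 71.9 and 79.6 (11D) in tagged EtOH and 65.7, 69.6 and 82.4 in untagged IAA, with overlap and a log2 fold change of 0.16 ± 0.10 (FDR 0.189). Irf2, which can repress interferon genes, stayed at or under 1.70 CPM in every library (-0.16 ± 0.55, FDR 0.825).

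Of the receptor genes, Ifnar2 fell and its partner did not pass. IFNAR1 and IFNAR2 form the receptor for type I interferon, and the genes lie near each other on chromosome 16. Ifnar2 (chr16:91372783-91405589, plus strand) had 5.26 (10E), 3.14 and 4.01 (11D) CPM in tagged IAA, 7.60 and 10.7 (10E), 11.2 and 11.4 (11D) in tagged EtOH and 6.94, 9.10 and 7.83 in untagged IAA. All 3 tagged IAA libraries lay below all other libraries. Its log2 fold change was -1.31 ± 0.24 (edgeR FDR 0.000208). Ifnar1 (chr16:91485238-91507441, plus strand) had 61.0 (10E), 70.4 and 63.8 (11D) CPM in tagged IAA, 51.3 and 62.3 (10E), 54.8 and 56.8 (11D) in tagged EtOH and 61.8, 56.1 and 58.2 in untagged IAA, with a log2 fold change of 0.19 ± 0.11 (FDR 0.152). With library totals the value of Ifnar1 was 0.52 with an FDR of 0.0004.

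The CPM of Ifnar1 divided by that of Ifnar2 in the same library, a ratio that does not depend on scaling, was 11.6 to 22.5 in tagged IAA, 4.89 to 6.76 in tagged EtOH and 6.17 to 8.90 in untagged IAA. The tagged groups did not overlap, and a two-sided exact permutation test gave p = 0.0571, the smallest that 35 arrangements allow (0.0571 also after adjustment over the 3 ratios tested). This ratio and the 2 given for the Ifitm genes were chosen after their values were seen, and they show unequal change, not which gene moved. Full separation fixes this p, so the p and its adjustment add no support to the separation. The permutation test did not take line into account. Ifngr1, a subunit of the receptor for interferon gamma, overlapped at 3.29 (10E), 3.42 and 3.82 (11D) CPM in tagged IAA and 3.14 and 4.55 (10E), 3.73 and 4.93 (11D) in tagged EtOH (-0.28 ± 0.27, FDR 0.388).

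**Figure D3:**
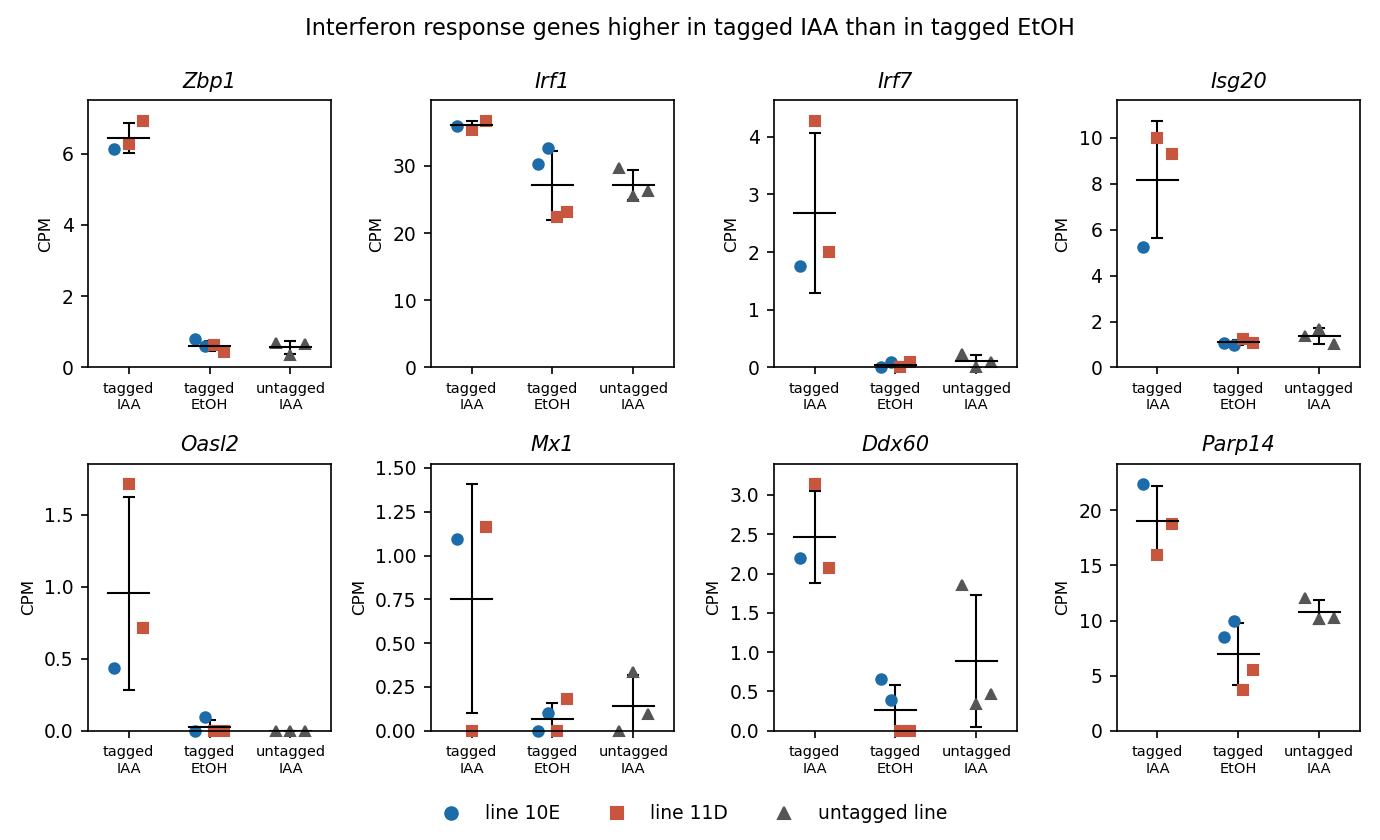
CPM in each library of the 8 members called higher in tagged IAA than in tagged EtOH, one panel per gene, with tagged IAA left, tagged EtOH in the middle and untagged IAA right, and bars for the group mean and SD, with SD bars ending at the axis where they would pass below 0. Zbp1, Irf1, Irf7, Isg20, Oasl2, Ddx60 and Parp14 separate tagged IAA from tagged EtOH, while 1 tagged IAA library is at 0 for Mx1.

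Isg20 and Parp14 led the induced products that rose. ISG20 is an exonuclease that acts on viral RNA (chr7:78913424-78920396, plus strand). Isg20 had 5.26 (10E), 9.98 and 9.31 (11D) CPM in tagged IAA, 1.05 and 0.988 (10E), 1.24 and 1.08 (11D) in tagged EtOH and 1.39, 1.69 and 1.02 in untagged IAA, so that each tagged IAA library was above 5 CPM and each other library under 2 CPM. This is a log2 fold change of 2.77 ± 0.29 (edgeR FDR 9.72e-07). Isg20 passed the filter on low counts only through its tagged IAA libraries. PARP14 transfers ADP-ribose to proteins (chr16:35832874-35871544, minus strand), and its transcript stood at 22.4 (10E), 16.0 and 18.8 (11D) CPM in tagged IAA, 8.51 and 9.98 (10E), 3.73 and 5.56 (11D) in tagged EtOH and 12.0, 10.1 and 10.2 in untagged IAA. Again no tagged IAA library overlapped the others, and the log2 fold change was 1.56 ± 0.19 (edgeR FDR 4.91e-06).

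Oasl2 and Mx1 rose at levels near the limit of detection. OASL2 belongs to the oligoadenylate synthetase family, whose active members make the messenger that switches on RNase L (chr5:114896936-114912234, plus strand). Oasl2 had 0.439 (10E), 1.71 and 0.711 (11D) CPM in tagged IAA, 0 and 0.0988 (10E), 0 and 0 (11D) in tagged EtOH and 0 in untagged IAA. The 19 counts in tagged IAA against 1 in tagged EtOH give a ratio of 25.9 (exact 95% interval 4.12 to 1078) with an edgeR FDR of 0.0046, and without 11D EtOH replicate 2 the FDR was 0.0538. MX1 is a dynamin-like GTPase that blocks viruses (chr16:97447035-97462907, minus strand). Mx1 had 1.10 (10E), 0 and 1.16 (11D) CPM in tagged IAA, 0 and 0.0988 (10E), 0 and 0.179 (11D) in tagged EtOH and 0, 0.337 and 0.0932 in untagged IAA. The first 11D IAA library held no count, so the groups overlap. From 23 counts against 3 the ratio was 10.5 (3.16 to 54.5) with an edgeR FDR of 0.0108, and the DESeq2 adjusted p was 0.0860. Both Oasl2 and Mx1 passed the filter on low counts only through their tagged IAA libraries.

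The 3 Ifitm members, which encode membrane proteins that hinder the entry of viruses, lie close together on chromosome 7. They had the most reads per exon length of all 39 members, in tagged IAA 144 mean CPM per kilobase of exon for Ifitm2, 115 for Ifitm1 and 65.6 for Ifitm3, and in tagged EtOH 227 for Ifitm2, 108 for Ifitm1 and 98.4 for Ifitm3. Ifitm2 (chr7:140954837-140955987, minus strand) had 87.5 (10E), 103 and 91.3 (11D) CPM in tagged IAA, 137 and 158 (10E), 148 and 153 (11D) in tagged EtOH and 108, 151 and 119.7 in untagged IAA. Every tagged IAA library was below every other library. Ifitm2 fell by 0.69 ± 0.10 on the log2 scale (edgeR FDR 1.69e-05).

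Ifitm3 (chr7:141009586-141010770, minus strand) had 42.5 (10E), 46.7 and 44.2 (11D) CPM in tagged IAA, 63.1 and 69.1 (10E), 61.3 and 73.4 (11D) in tagged EtOH and 59.0, 79.2 and 58.8 in untagged IAA, also without overlap. Its log2 fold change was -0.61 ± 0.11 (edgeR FDR 0.000181). Ifitm1 (chr7:140967221-140969825, plus strand) had 108 (10E), 140.2 and 129 (11D) CPM in tagged IAA, 96.3 and 103 (10E), 113 and 158 (11D) in tagged EtOH and 118, 145 and 106 in untagged IAA, ranges that overlap, and a log2 fold change of 0.02 ± 0.11 (FDR 0.908). With library totals the value of Ifitm1 was 0.35 with an FDR of 0.0142. Within a library, the CPM of Ifitm1 was 1.23 to 1.41 times that of Ifitm2 in tagged IAA, 0.655 to 1.03 times in tagged EtOH and 0.887 to 1.09 times in untagged IAA. Relative to Ifitm3 it was 2.54 to 3.00 times in tagged IAA, 1.50 to 2.15 times in tagged EtOH and 1.81 to 2.00 times in untagged IAA. Both ratios separated the tagged groups, and the exact permutation p was 0.0571 for each, the smallest possible (0.0571 adjusted over the 3 ratios). As for the Ifnar genes, these p-values are fixed by the separation and add no support to it.

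Bst2, which encodes tetherin, a protein that holds budding viruses at the cell surface (chr8:71534255-71537456, minus strand), had 6.58 (10E), 8.84 and 8.28 (11D) CPM in tagged IAA, 11.9 and 8.30 (10E), 18.1 and 9.50 (11D) in tagged EtOH and 7.41, 10.8 and 12.0 in untagged IAA. The groups overlap, and 11D EtOH replicate 1, one of the libraries rich in CT010467.1, is the highest. Its log2 fold change was -0.61 ± 0.24 (edgeR FDR 0.0386). Without 11D EtOH replicate 1 it was -0.37 with an FDR of 0.194, and over the 15 alternatives the FDR reached 0.330.

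Of the induced products, 5 were tested and not called. Oas1a, Oas2 and Oasl1 belong to the oligoadenylate synthetase family. Oas1a had 8.11 (10E), 9.98 and 13.8 (11D) CPM in tagged IAA, 8.51 and 8.00 (10E), 11.8 and 11.02 (11D) in tagged EtOH and 18.5, 24.6 and 14.9 in untagged IAA (0.06 ± 0.19, FDR 0.795). Tagged cells overlapped each other under both treatments and lay below every untagged library. Oas2 (-0.01 ± 0.32, FDR 0.983) had 2.72 to 3.99 CPM in tagged IAA and 2.47 to 4.71 in tagged EtOH, and Oasl1 (0.31 ± 0.49, FDR 0.602) had 1.29 to 1.71 in tagged IAA and 0.311 to 1.57 in tagged EtOH. Xaf1, which encodes a promoter of apoptosis, had 50.2 (10E), 59.6 and 55.8 (11D) CPM in tagged IAA, 50.0 and 65.1 (10E), 54.2 and 57.0 (11D) in tagged EtOH and 70.6, 85.8 and 59.9 in untagged IAA (-0.06 ± 0.12, FDR 0.69).

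The 11 members that were not tested summed to 70 counts, or 1.75 to 3.49 CPM per library, in tagged IAA, to 16 counts, or 0 to 1.05 CPM, in tagged EtOH, and to 16 counts, or 0.652 to 1.01 CPM, in untagged IAA. Isg15, the ubiquitin-like modifier (chr4:156199424-156200818, minus strand), had 0.219 (10E), 0 and 0.841 (11D) CPM in tagged IAA, 0 and 0.0988 (10E), 0 and 0 (11D) in tagged EtOH and 0 in untagged IAA. Its 14 counts against 1 give a ratio of 19.1 (exact 95% interval 2.91 to 808), and 13 of the 14 came from 11D IAA replicate 2. Mx2, a relative of Mx1, had 14 counts in tagged IAA, 0 in tagged EtOH and 2 in untagged IAA, at least 6.37-fold higher than in tagged EtOH by that floor. Psmb8, a subunit of the immunoproteasome, had 13 counts in tagged IAA, 0 in tagged EtOH and 2 in untagged IAA (at least 5.92-fold higher than in tagged EtOH). Usp18, which removes ISG15 from proteins and dampens the receptor, had 8 in tagged IAA and 0 in tagged EtOH (at least 3.64-fold higher), with counts in all 3 tagged IAA libraries. Most of these counts too came from 11D IAA replicate 2, the deepest library, with 11 of 14 for Mx2, 11 of 13 for Psmb8 and 5 of 8 for Usp18. Without that library the tagged IAA counts were 1 for Isg15, 3 for Mx2, 2 for Psmb8 and 3 for Usp18, at or under the floor, and no fold is given. Rsad2, which encodes viperin, had 5 in tagged IAA, 0 in tagged EtOH and 2 in untagged IAA, and Cxcl10, a chemokine gene, had 3 in tagged IAA and 0 in both other groups.

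The Ifit genes, whose products bind viral RNA and are textbook reporters of the interferon response, were at or near 0. Ifit2 had 4 counts in tagged IAA, 11 in tagged EtOH and 8 in untagged IAA, and Ifit1 had a single count, in untagged IAA. Ifit3 had no count in any library, and neither did its near-identical copy Ifit3b.

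The calls were also counted by mean level, and a part of low counts in their direction was not tested. Of the 6 tested members with a mean under 2 CPM over the tagged libraries, 4 were higher (Irf7, Oasl2, Mx1 and Ddx60) and 2 did not pass (Irf2 and Oasl1), in a class where 36.6% of all genes tested were higher and 6.8% lower. These 4 passed the filter only through the group in which they were high. Zbp1 and Isg20, at 2 CPM or more, also passed it only through tagged IAA. Of the 22 members at 2 CPM or more, 4 were higher and 9 lower, against 27% and 34.7% of all genes in that class. In the same libraries, 1779 chemosensory receptor genes, which this cell type does not use, summed to 94.3 to 106 CPM in tagged IAA, 53.2 to 80.9 in tagged EtOH and 73.2 to 118 in untagged IAA. Their part in the result was not tested.

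Exons of 15 of the 39 members overlap those of another gene, and the strand setting of the counting is not given in the sources used here, so reads of the partner may be included. Among members with calls these are Irf1 (Gm17334), Irf3 (Bcl2l12), Irf7 (Phrf1), Ifitm2 (Gm45717), Eif2ak2 (Gm26637), Adar (Chrnb2), Ifnar2 (Gm21970) and Parp14 (Gm49730). Irf9 overlaps Rnf31 and Dhx58 its antisense partner Dhx58os. Oas1a has a near-identical neighbour, Oas1g, and reads of both may be split between them.

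The lines 10E and 11D were compared through the effect of IAA in each. In 10E, with 1 IAA library that is assumed to vary like the other groups, 4 members were higher and 6 lower, against 17.1% and 18.3% of all genes. In 11D, 8 were higher and 8 lower, against 23.1% in each direction. All members called in 10E were called in 11D in the same direction. Zbp1, Irf7, Isg20 and Parp14 were higher, and Irf3, Ifitm2, Ifitm3, Mavs, Eif2ak2 and Adar lower. Called in 11D only were Irf1, Irf9, Oasl2 and Ddx60 (higher) and Ifnar2 and Trim25 (lower). Mx1 and Bst2 were called in neither line alone. Both line effects come from the same fit. How often the calls of both lines agree over all genes was not counted, so the agreement is not shown to be particular to the members. The log2 fold change of Zbp1 was 3.14 ± 0.50 in 10E and 3.72 ± 0.46 in 11D, that of Isg20 2.34 ± 0.45 in 10E and 3.07 ± 0.36 in 11D, and that of Parp14 1.26 ± 0.27 in 10E and 1.82 ± 0.25 in 11D. For Mavs it was -0.68 ± 0.16 in 10E and -1.04 ± 0.13 in 11D, and for Ifitm2 -0.77 ± 0.15 in 10E and -0.64 ± 0.12 in 11D. Irf9 (-0.09 ± 0.22 in 10E, 0.61 ± 0.18 in 11D) and Ddx60 were the members whose effects differed between lines at an unadjusted p under 0.05. The share of all genes at that level was not counted. After adjustment the interaction was called for 0 of 28 members by edgeR (FDR 0.938 for both) and 0 by DESeq2, and for 0% of all genes by edgeR.

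**Figure D4:**
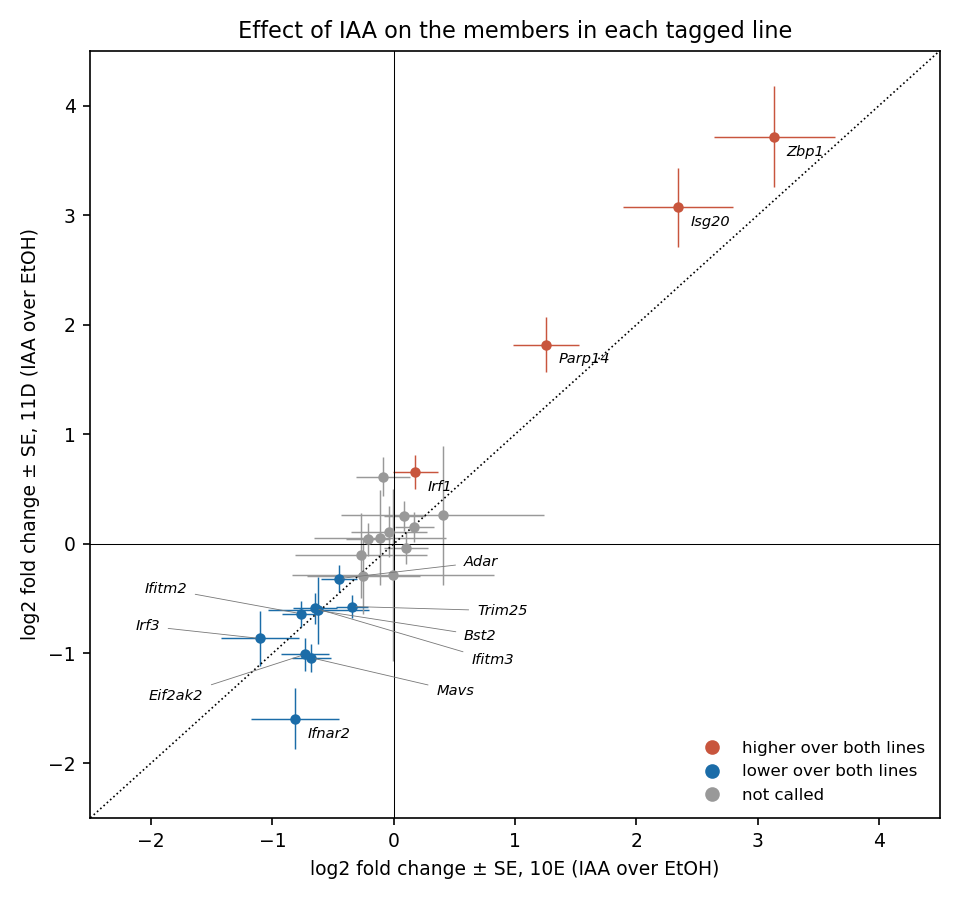
Log2 fold change of IAA over EtOH with its standard error in line 10E (horizontal) and line 11D (vertical) for the 24 tested members with more than 3 counts under each treatment in each line, with the dotted line marking equal effects. Called members lie on the same side of 0 in both lines, and the grey member above the line near 0 in 10E is Irf9.

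Tagged IAA cells were also set against untagged IAA cells, where auxin is shared and the tag and the line differ. In that fit 27 members passed the filter, 9 were higher and 9 lower, against 27.9% and 27.8% of 17439 genes tested. The higher members were Zbp1 (3.46 ± 0.38), Isg20 (2.42 ± 0.31), Parp14 (0.89 ± 0.18), Irf1 (0.42 ± 0.13), Irf9 (0.40 ± 0.15), Stat2 (0.31 ± 0.12), Irf7, Oasl2 and Ddx60 (1.60 ± 0.60). The lower members were Eif2ak2 (-0.98 ± 0.12), Oas1a (-0.94 ± 0.22), Ifnar2 (-0.85 ± 0.24), Irf3 (-0.84 ± 0.21), Mavs (-0.71 ± 0.12), Ifitm3 (-0.58 ± 0.14), Trim25 (-0.47 ± 0.09), Ifitm2 (-0.45 ± 0.12) and Xaf1 (-0.42 ± 0.14). The edgeR FDR of these 18 was at most 0.0355, that of Stat2 and Ddx60. Irf9, Stat2, Oas1a and Xaf1 among them were not called in tagged IAA against tagged EtOH. Adar (-0.21 ± 0.10, FDR 0.0831) and Bst2 (-0.47 ± 0.28, FDR 0.169) did not pass.

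Tagged EtOH cells and untagged IAA cells differ by tag, line and treatment together. Calls were rare there, 1.27% of genes higher and 2.29% lower (3.57% in all), and 1 of 27 members tested was called. At an unadjusted edgeR p under 0.05 there were 5 members, and the share of all genes at that level was not counted. The called member was Oas1a, lower at -0.99 ± 0.19 (edgeR FDR 0.0136), whose level in tagged IAA was likewise under that in untagged cells. Parp14 stood at -0.66 ± 0.18 with an FDR of 0.0551, and Xaf1 at -0.34 ± 0.13 with an FDR of 0.135. These 3 comparisons share libraries and are not independent of each other.

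Related genes outside the 39 were described by 9 lists in tagged IAA against tagged EtOH. Over all genes tested in that comparison, 29.3% were higher and 28.1% lower, the shares to set beside the counts of each list. Interferon genes themselves were at or near 0. The 21 of them had 0 counts in tagged IAA, which allows a summed level of up to 0.127 CPM (counting error only), 2 counts in tagged EtOH and 0 in untagged IAA. Of 23 genes for other receptor subunits and JAK-STAT signalling, all tested, 6 were higher and 10 lower, with a median log2 fold change of -0.42. Ptpn1, a phosphatase, rose (0.81 ± 0.11), and Pias2 (-1.66 ± 0.09) and Socs3 (-0.74 ± 0.14) fell.

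Of 62 other interferon-stimulated genes, 34 were tested, 16 were higher and 7 lower, and the median was 0.40. Irgm1, an immunity-related GTPase (3.80 ± 0.36), and Parp12 (2.72 ± 0.20) rose, and Pml (-1.35 ± 0.11) and Phf11d (-0.86 ± 0.11) fell. Of 17 genes for antigen presentation by MHC class I, 16 were tested, 8 were higher and 2 lower, and the median was 0.53. The peptide transporter gene Tap1 (2.76 ± 0.18) and the class I gene H2-K1 (2.48 ± 0.19) rose, and the chaperone gene Canx (-0.45 ± 0.09) and Psme1 (-0.29 ± 0.12) fell. Of 26 other sensors and adaptors, 20 were tested, 7 were higher and 2 lower, and the median was 0.06. Sting1, which encodes the adaptor of cytosolic DNA sensing (1.28 ± 0.23), and Riok3 (0.71 ± 0.09) rose, and the DNA sensor gene Aim2 (-1.46 ± 0.16) and Tlr2 (-1.39 ± 0.17) fell. Ddx58, which encodes RIG-I, overlapped at 27.9 (10E), 50.7 and 42.0 (11D) CPM in tagged IAA and 25.5 and 35.2 (10E), 42.6 and 36.6 (11D) in tagged EtOH (0.09 ± 0.14, FDR 0.630).

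Of 21 genes for binding and processing of double-stranded RNA, 19 were tested, 2 were higher and 10 lower, and the median was -0.46. The helicase gene Ddx17 (-0.99 ± 0.09) fell, and Stau1 (0.41 ± 0.09) and Tarbp2 (0.31 ± 0.11) rose. Of 24 NF-kappaB genes, 17 were tested, 2 were higher (Chuk and Birc3) and 5 lower, Tnip1 and Nfkb1 among them, and the median was 0.02. Of 7 other IRF family and IRF-binding genes, 6 were tested and 3 were lower, Irf2bpl (-1.57 ± 0.34) and Irf2bp2 (-0.66 ± 0.12) among them, and the median was -0.57. Of 4 other Ifitm genes, 2 were tested and Ifitm5 fell (-1.60 ± 0.37). The edgeR FDR of the genes given here as rising or falling was at most 0.0479. The median over all genes tested was 0.03.

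**Figure D5:**
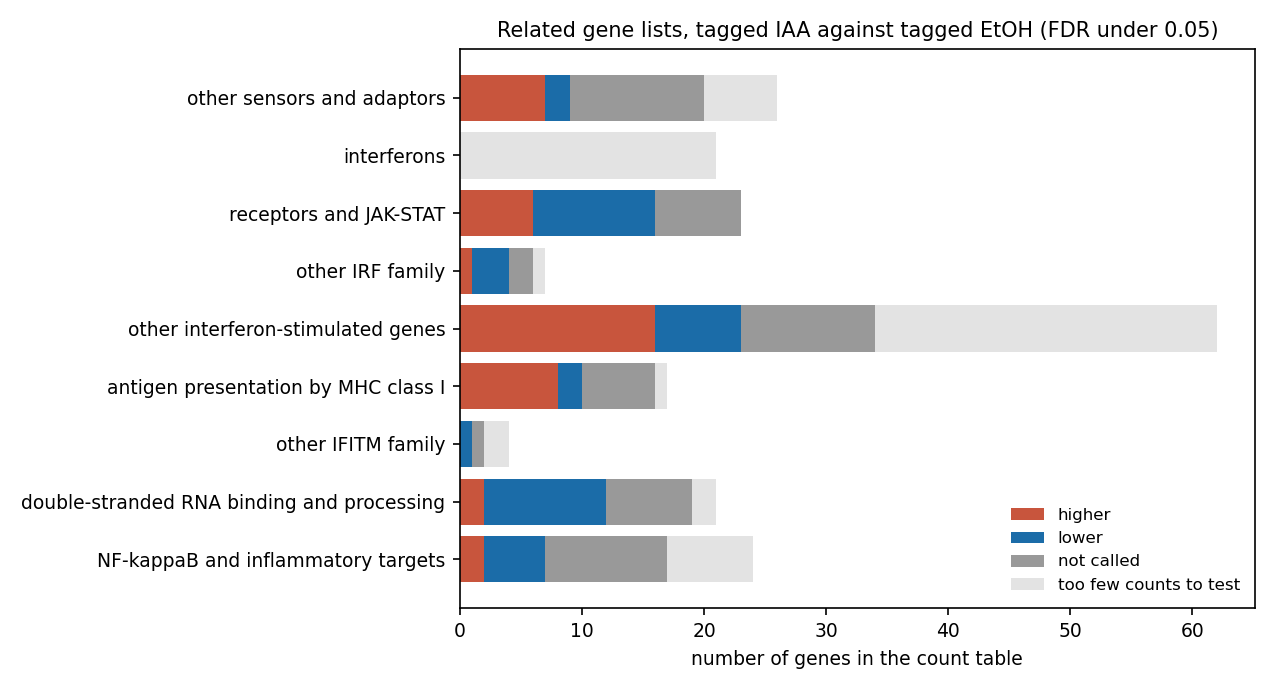
Number of genes of each of 9 related lists that were higher, lower, not called or too low in counts to test in tagged IAA against tagged EtOH, as stacked horizontal bars. The list of other interferon-stimulated genes has 16 higher and 7 lower, that of double-stranded RNA binding 2 higher and 10 lower, and all 21 interferon genes were too low to test. Over all genes tested, 29.3% were higher and 28.1% lower.

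Markers of other cell types gave mixed values in tagged IAA against tagged EtOH, where 29.3% of all genes tested were higher and 28.1% lower. Of 12 leukocyte markers, 5 were tested, 2 were higher (Cd68 and Csf1r), 3 did not pass, and the list summed to 211 to 278 CPM in tagged IAA, 200.5 to 225 in tagged EtOH and 175 to 209 in untagged IAA. Adgre1 and Lyz2 were at 0 in all libraries, and Ptprc had 7 counts in tagged IAA and 0 elsewhere. Of 10 fibroblast markers, 5 were tested, 1 was higher and 1 lower, and the sums were 19.7 to 25.7 CPM in tagged IAA, 23.4 to 36.4 in tagged EtOH and 22.9 to 31.2 in untagged IAA. Of 5 endothelial markers, 3 were tested, 2 were higher and 1 lower, and the sums were 124 to 131 CPM in tagged IAA, 136 to 172 in tagged EtOH and 149 to 165 in untagged IAA. The part of these markers in the members' differences was not tested.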

How the data were processed

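Total RNA was made into libraries with the NEBNext Directional kit, per the labels' protocols. STAR, deepTools and mm10 are named in the submitters' processing notes, without versions. The authors deposited 1 table of raw read counts, 1 row per gene symbol, without normalization. The sources used here do not name the read counter, annotation or strand setting. The authors' deposited comparison table was not used.

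The table holds 10 libraries, the labels list 11 samples (8 of them tagged) and the design text speaks of 12 libraries, and a second 10E IAA library was not analysed here. Columns name the lines 10E, 11D and TIR1, and nothing ties 10E or 11D to the labels' clone numbers. TIR1 was read as the untagged line, the one with 3 IAA replicates and no EtOH sample in the labels. Whether replicates were separate cultures is not stated, so the p-values rest on a spread between libraries that may be technical. Chi-square per degree of freedom within replicate pairs was 2.84 to 25.5, above sampling noise, and no library was merged with another.

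Tests used edgeR 4.0.16 in R 4.3.3 (TMM factors, filterByExpr on line and treatment, quasi-likelihood F test), with adjustment over all genes tested. The comparison of tagged IAA with tagged EtOH used 7 libraries and a line term. Comparisons with untagged cells used all 10, with the tagged lines averaged. DESeq2 1.42.0 was an alternative. The scripts were checked on simulated counts. Standard errors (SE) are the size of the log2 fold change over the root of the F statistic. Where a group held 1 to 3 counts, the fitted value is replaced by the ratio of pooled counts over effective library sizes. This ratio has an exact 95% interval. It is also given for Ddx60, with 9 counts in tagged EtOH. The floor is 3 counts over the group. PCR reads carry no molecular identifiers here, so intervals and floors cover counting error only. Gene positions and exon overlaps come from GENCODE vM21 (GRCm38), and promoter sequences from RefSeq (GRCm38.p6).

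The members, lists, tests and alternatives were chosen with earlier results of these data known. All 39 members are accounted for. Beside them, the text names at most 2 called genes for each direction of a list, those of smallest FDR, and Ddx58, Ifit3b and Oas1g were named after their values were seen. Some genes that this rule would name are not reported here.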

Additional observations from a re-analysis of the deposited data

Results flagged for a closer look

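Within the 4 tagged EtOH libraries, the highest or lowest value stood apart from the other 3 by Dixon's criterion for 3 of the 28 tested members, and chance flags about 1 in 20 such groups. Adar was at 129 CPM in 10E EtOH replicate 1 and between 109 and 111 CPM in the others. Irf9 was at 18.7 CPM in 11D EtOH replicate 2 and between 24.3 and 24.9 CPM in the others. Oasl2 was at 0.0988 CPM in 10E EtOH replicate 2, a single count, and at 0 in the others. The groups of 3 libraries were not tested in this way.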

How the results depend on the processing

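Of the 17 members called between tagged IAA and tagged EtOH, 11 kept their call in each of 15 alternatives. Oasl2 and Mx1 passed the filter in 11 and 9 of them. The members higher numbered 8 as reported, 13 with library totals and 12 without a filter on low counts. Over all genes tested, 5247 of 17904 were higher as reported, 7713 of 17904 with library totals and 5349 of 32032 without a filter. Isg15 (FDR 0.0411), Mx2 (0.00902), Psmb8 (0.0273) and Usp18 (0.0327) were also called without a filter. Bst2 kept its call in 4 of the 15. The other lost calls were Irf1 (no line term, FDR 0.0534), Oasl2 (without 11D EtOH replicate 2, FDR 0.0538), Mx1 (DESeq2, adjusted p 0.0860), and Adar and Trim25 (library totals, FDR 0.753 and 0.162). Calls were gained with library totals for Irf9, Stat2, Ifitm1, Ifnar1 and Xaf1, and for Irf9 without 10E IAA replicate 1 (FDR 0.0146). The cause was not tested.

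Members without a call changed sign around 0. With library totals the log2 fold change was 0.17 for Irf2 and for Dhx58, 0.32 for Oas2, 0.0505 for Ifngr1 and 0.28 for Xaf1 (FDR 0.0443). Without 10E EtOH replicate 2 and 11D EtOH replicate 1, both rich in CT010467.1, it was -0.10 for Ifitm1, 0.0877 for Dhx58 and -0.12 for Oasl1. It was -0.0192 for Ifitm1 without a filter, and for Oas2 0.0625 with DESeq2 and 0.0207 with a minimum of 1 CPM in 3 libraries. With 1 library left out the values ran from -0.56 to 0.0439 for Irf2, -0.0903 to 0.19 for Ifitm1, -0.0829 to 0.14 for Oas1a, -0.14 to 0.16 for Oas2 and -0.12 to 0.0451 for Xaf1.

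Against untagged cells, 9 members were higher in tagged IAA as reported and 5 with a replicate block, and 9 were lower as reported and 4 with library totals. Of 17439 genes tested there, 4865 were higher as reported and 3872 with a replicate block. Lower were 4843 genes as reported and 3006 with library totals. In tagged EtOH 1 member was lower as reported, 2 with library totals and 3 without a filter. Genes lower numbered 400 of 17439, 715 of 17439 and 723 of 32892 in that order. With 1 library left out, 0 to 2 members were lower. The number was 0 without untagged replicate 1 (66 of 18022 genes lower) or replicate 2 (109 of 18099). It was 2 without 11D EtOH replicate 2 (494 of 17064).

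With a replicate block, 8 members were higher and 9 lower in tagged IAA than in tagged EtOH, as without it. Of 17904 genes tested, 5047 were higher and 4872 lower with the block. Same-numbered libraries did not all deviate together (Pearson r across 12898 genes 0.39 between 11D EtOH and 11D IAA, -0.27 between 10E EtOH and 11D EtOH), so the numbers were not taken to pair the samples. A run without 10E IAA replicate 1 leaves line 10E with no IAA library, and gave no value for 10E or the interaction.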
